A study of Mus musculus with 8 samples.

Results

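The Notch pathway genes described here were 3 groups of genes picked by their symbols in the deposited gene table: the ligands Dll1, Dll4, Jag1 and Jag2, the receptors Notch1, Notch2 and Notch3, and the target genes Hes1, Hey1 and Nrarp. They were 10 of the 55450 genes in the table, and all 10 were among the 21451 genes that passed the filter on low counts. RNA was measured by bulk sequencing in thymic epithelial cells (TECs), the EpCAM+ stromal cells that support T cell development, taken from mouse embryos at embryonic day (E) 17. The embryos of all groups were RANK-Venus/CCL21a-tdTomato mice. They carried a tdTomato reporter knocked into Ccl21a, which encodes the chemokine CCL21, and a Venus reporter transgene for Tnfrsf11a, which encodes RANK, the receptor through which RANK ligand drives medullary TEC (mTEC) differentiation. CD45-EpCAM+ cells were sorted by these 2 colours into CCL21+RANK- TECs (3 libraries), CCL21-RANK+ TECs (3 libraries) and CCL21-RANK- TECs (2 libraries), called CCL21+, RANK+ and double-negative TECs from here on. No untreated or unsorted sample served as a control, and the double-negative population is itself a mixture that the sort did not divide into cortical, medullary and progenitor cells. Library totals ranged from 42751839 to 71625282 counts. A checklist supplied with the study calls its replicates biological, but it is not specific to these libraries, and neither it nor the labels say whether they came from separate embryos or litters or how many embryos were pooled. The p-values therefore measure the spread between these libraries, which may be partly technical. The sort let CCL21-expressing and RANK-expressing TECs of the embryo be compared with each other and with TECs that expressed neither reporter.

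Notch is a signal between touching cells. A ligand of the Delta-like (Dll) or Jagged (Jag) family on 1 cell binds a Notch receptor on its neighbour, the receptor is cut by an ADAM protease and then by γ-secretase, and the freed intracellular domain joins the DNA-binding protein RBPJ to switch on target genes such as Hes1, Hey1 and Nrarp. In the thymus, Dll4 on TECs is the ligand that commits incoming progenitors to the T cell lineage through Notch1, and Notch activity inside the epithelium itself is known to act early in the making of mTECs. The RNA levels below show which parts of the pathway each sorted population transcribed, and they do not measure signalling.

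Most of the Notch genes were lowest in RANK+ TECs. Compared with those cells, CCL21+ TECs contained 6.66-fold more Dll4, 5.38-fold more Jag2 and 4.81-fold more Hey1 RNA, and double-negative TECs contained 10.4-fold more Dll4, 6.07-fold more Jag2 and 7.17-fold more Hey1. Notch1 was the exception, with its highest level in RANK+ TECs. A gene was called different when its adjusted p-value was under 0.05 by edgeR's quasi-likelihood test, its fold change was over 1.5 and its mean was over 1 RPKM (counts scaled to the exon length of the gene and to the library total) in the higher group. By this rule 8 of the 10 genes were called between CCL21+ and RANK+ TECs, where 30.8% of all tested genes were called, and all 8 were higher in CCL21+ TECs, a direction in which 15.4% of all tested genes were called. Notch1 and Notch3 lay next to the fold threshold: under 10 of 16 alternative settings Notch1 was called too, higher in RANK+ TECs, and 7 or 8 genes were called higher in CCL21+ TECs under all 16. Between RANK+ and double-negative TECs 9 of the 10 were called, against 29.5% of all tested genes, with 8 higher in double-negative TECs (15.1% of all tested genes in that direction) and 1 in RANK+ TECs (14.4%). Between CCL21+ and double-negative TECs 3 of the 10 were called, against 8.02% of all tested genes, with Notch2 higher in CCL21+ TECs (4.35% of all tested genes in that direction) and Dll4 and Nrarp higher in double-negative TECs (3.66%). The median log2 fold change of the 10 genes was 1.32 for CCL21+ over RANK+ TECs and -0.999 for RANK+ over double-negative TECs, beside medians of -0.11 and 0.06 over all tested genes. By the adjusted p-value alone, 10, 10 and 3 of the 10 genes passed in the comparisons of RANK+ with CCL21+ TECs, RANK+ with double-negative TECs and CCL21+ with double-negative TECs, against 53.7, 49 and 11.4% of all tested genes. The RPKM of CCL21+ and RANK+ libraries did not overlap for 9 of the 10 genes, 8 higher in CCL21+ and 1 in RANK+ TECs, where 59.8% of all tested genes did not overlap, 22.8% higher in CCL21+ and 36.9% in RANK+ TECs. RANK+ and double-negative libraries did not overlap for any of the 10, with 9 higher in double-negative and 1 in RANK+ TECs, beside 65.7% of all tested genes, 26.9% higher in double-negative and 38.8% in RANK+ TECs. For CCL21+ and double-negative libraries the count was 6, with 3 in each direction, beside 38.9% of all tested genes, 18.4% higher in CCL21+ and 20.5% in double-negative TECs. These comparisons share libraries and are not independent of each other. The 10 genes were chosen with earlier results of these data known. The shares of all tested genes called include genes of low RPKM that the rule cannot call. In bulk RNA, fewer cells expressing a gene and less RNA of it per cell cannot be told apart.

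**Figure D1:**
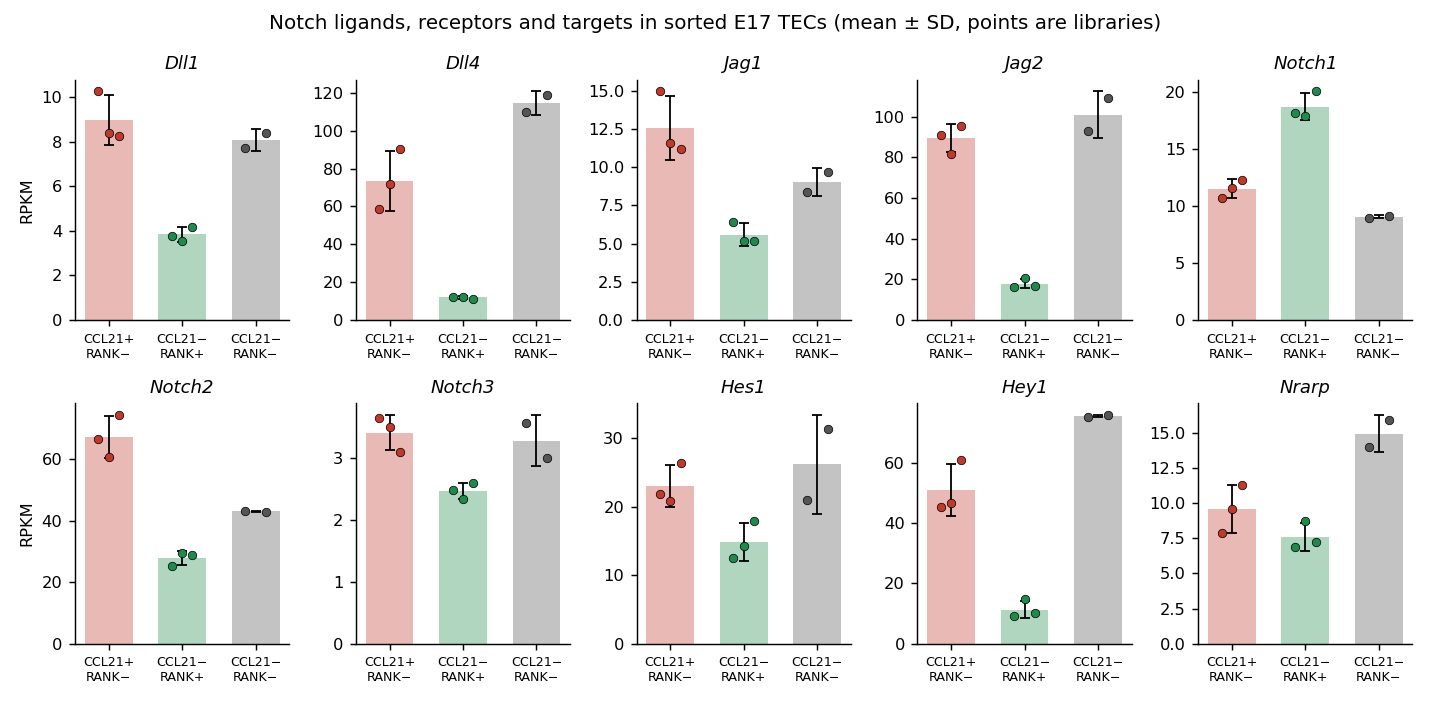
RPKM (linear axis from 0, a separate scale for each gene) of the 10 Notch genes in the 3 sorted TEC populations, with a point for each library, bars at the mean and error bars of 1 SD (n = 3, 3 and 2 libraries). The RANK+ libraries sit lowest for every gene but Notch1 and Nrarp. For Notch1 they sit highest, and for Nrarp they overlap the CCL21+ libraries.

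Dll4 (ENSMUSG00000027314.6, chr2:119325784-119335962, plus strand, GRCm38) encodes the Delta-like ligand used in T lineage commitment. It was measured at 58.5, 71.6 and 90.2 RPKM in the CCL21+ libraries, 12.4, 12.3 and 11.1 RPKM in the RANK+ libraries and 110.04 and 119 RPKM in the double-negative libraries. No population overlapped another, and the order was double-negative, CCL21+, RANK+. The log2 fold change was 2.74 ± 0.15 (SE) for CCL21+ over RANK+ TECs (edgeR adjusted p = 8.57e-07) and -3.38 ± 0.16 for RANK+ over double-negative TECs (adjusted p = 5.68e-07). The upper step was smaller and less secure. Dll4 was 1.56-fold higher in double-negative than in CCL21+ TECs (log2 fold change of CCL21+ over double-negative -0.64 ± 0.15, adjusted p = 0.0239), and this call was lost when CCL21+ replicate 1 or 2 or either double-negative library was left out (adjusted p up to 0.135).

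Dll4 overlaps at its 5′ end a noncoding gene on the opposite strand, Gm14207 (ENSMUSG00000074912.10, chr2:119321187-119326194, minus strand), whose exons include part of those of Dll4. Gm14207 had 26.7, 28.2 and 39.04 RPKM in CCL21+ TECs, 5.85, 4.75 and 3.91 RPKM in RANK+ TECs and 30.8 and 42.7 RPKM in double-negative TECs. It therefore had the same low population as Dll4, with a log2 fold change of 2.81 ± 0.18 for CCL21+ over RANK+ TECs (edgeR adjusted p = 1.9e-06) and -3.04 ± 0.19 for RANK+ over double-negative TECs (adjusted p = 2.11e-06). Dll4 had between 7.75 and 13.1 times as many counts as Gm14207 in the 8 libraries. Whether the counting used the strand of the reads is not given in the sources used here, so reads from the shared exons cannot be assigned to either gene with certainty. The 250 bases upstream of the Dll4 start are printed because they lie within Gm14207 and both genes were lower in RANK+ TECs (RefSeq, GRCm38.p6, chr2:119325534-119325783, plus strand, 5′ to 3′, in lower case since no searched motif was found in it).

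Dll4 upstream region: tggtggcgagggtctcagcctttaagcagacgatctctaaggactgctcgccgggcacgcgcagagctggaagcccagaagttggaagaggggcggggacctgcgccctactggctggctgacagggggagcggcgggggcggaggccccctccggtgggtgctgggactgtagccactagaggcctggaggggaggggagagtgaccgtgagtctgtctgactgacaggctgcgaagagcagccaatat

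Jag2 (ENSMUSG00000002799.6, chr12:112907819-112929776, minus strand), a Jagged ligand, was as abundant as Dll4 or more so in CCL21+ and RANK+ TECs. Its levels were 91.0, 81.8 and 95.3 RPKM in CCL21+ TECs, 16.5, 20.5 and 16.8 RPKM in RANK+ TECs and 92.9 and 109 RPKM in double-negative TECs. The RANK+ libraries were far below the rest, with log2 fold changes of 2.43 ± 0.14 (CCL21+ over RANK+, edgeR adjusted p = 1.13e-06) and -2.60 ± 0.15 (RANK+ over double-negative, adjusted p = 1.3e-06). The CCL21+ and double-negative libraries overlapped (log2 fold change -0.17 ± 0.15, adjusted p = 0.514), although on RPKM scaled by the TMM factors the double-negative libraries came out higher without overlap.

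The other 2 ligands were less abundant than Dll4 and Jag2 in every library. Dll1 (ENSMUSG00000014773.13, chr17:15367354-15376872, minus strand), a Delta-like ligand best known from tissues other than the thymic epithelium, had 10.3, 8.41 and 8.25 RPKM in CCL21+ TECs, 3.78, 3.56 and 4.20 RPKM in RANK+ TECs and 7.72 and 8.41 RPKM in double-negative TECs. It was 2.54-fold higher in CCL21+ than in RANK+ TECs (log2 fold change 1.35 ± 0.13, edgeR adjusted p = 2.39e-05) and 2.28-fold lower in RANK+ than in double-negative TECs (adjusted p = 0.000111), while CCL21+ and double-negative TECs overlapped (log2 fold change 0.16 ± 0.14, adjusted p = 0.555). A long noncoding gene on the opposite strand, A930024N18Rik, overlaps exons of Dll1 and had a mean of 208.8 counts a library, beside 1663 for Dll1. Jag1 (ENSMUSG00000027276.7, chr2:137081456-137116644, minus strand), the second Jagged ligand, had 15.0, 11.6 and 11.2 RPKM in CCL21+ TECs, 6.43, 5.15 and 5.17 RPKM in RANK+ TECs and 8.37 and 9.68 RPKM in double-negative TECs. The 3 populations did not overlap, and Jag1 was the only ligand with its highest level in CCL21+ TECs without overlap. Its fold was 2.46 over RANK+ TECs (log2 fold change 1.30 ± 0.14, edgeR adjusted p = 4e-05), whereas the difference from double-negative TECs did not pass the test (0.48 ± 0.15, adjusted p = 0.0734). Between RANK+ and double-negative TECs, Jag1 was 1.76-fold lower in the former (log2 fold change -0.81 ± 0.15, adjusted p = 0.00158).

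Among the receptors, Notch2 was the most abundant in every library. Notch2 (ENSMUSG00000027878.11, chr3:98013527-98150361, plus strand) had 66.6, 60.9 and 74.5 RPKM in CCL21+ TECs, 25.3, 29.6 and 28.8 RPKM in RANK+ TECs and 43.3 and 43.0 RPKM in double-negative TECs. The populations did not overlap, and CCL21+ TECs were highest. The log2 fold change over RANK+ TECs was 1.38 ± 0.12 (edgeR adjusted p = 1.41e-05) and that over double-negative TECs 0.64 ± 0.14 (adjusted p = 0.018). The second of these calls was lost without double-negative replicate 1 (adjusted p = 0.0809) or replicate 2 (adjusted p = 0.184). Between RANK+ and double-negative TECs the log2 fold change was -0.74 ± 0.14 (adjusted p = 0.0015), and this call was lost, at a fold under 1.5, with a minimum of 10 counts in every library (log2 fold change -0.54).

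Notch1 (ENSMUSG00000026923.15, chr2:26457903-26516663, minus strand), the receptor that developing T cells depend on, ran the other way. The RANK+ libraries had 18.2, 17.9 and 20.04 RPKM, the CCL21+ libraries 10.7, 11.6 and 12.3 RPKM and the double-negative libraries 8.97 and 9.12 RPKM. No populations overlapped. Notch1 was 1.90-fold higher in RANK+ than in double-negative TECs (log2 fold change 0.93 ± 0.12, edgeR adjusted p = 0.000199). Against CCL21+ TECs it was 1.49-fold higher in RANK+ TECs (log2 fold change of CCL21+ over RANK+ -0.58 ± 0.11, adjusted p = 0.00136), which passed the p-value threshold and stopped just short of the fold threshold. The CCL21+ and double-negative libraries differed by 0.35 ± 0.12 on the log2 scale (adjusted p = 0.0976). Thymocytes express Notch1, and their marker RNAs were also highest in RANK+ libraries: the 13 thymocyte markers summed to 33.5, 15.3 and 24.4 RPKM there, against 14.2, 6.26 and 8.16 RPKM in CCL21+ and 4.62 and 3.99 RPKM in double-negative libraries. The pan-leukocyte gene Ptprc (CD45) stayed under 1 RPKM in all 8 libraries, with 0.576, 0.177 and 0.422 RPKM in the RANK+ libraries. Ptprc was still 8.08-fold higher in RANK+ than in double-negative TECs (edgeR adjusted p = 0.00304). Over CCL21+ TECs it was 2.82-fold higher, with overlapping libraries (adjusted p = 0.028). It was not called because its mean stayed under 1 RPKM. The part of thymocyte RNA in the Notch1 difference was not tested.

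Notch3 (ENSMUSG00000038146.8, chr17:32120820-32166852, minus strand), a receptor best known from pericytes and smooth muscle, was low throughout. Its levels were 3.65, 3.50 and 3.10 RPKM in CCL21+ TECs, 2.48, 2.34 and 2.60 RPKM in RANK+ TECs and 3.57 and 3.00 RPKM in double-negative TECs. The RANK+ libraries were lowest without overlap. The log2 fold change of CCL21+ over RANK+ TECs was 0.59 ± 0.15 (edgeR adjusted p = 0.00771), just over the fold threshold at 1.51-fold, and the call was lost under 13 of 16 alternative settings. Neither the difference between RANK+ and double-negative TECs (-0.53 ± 0.16, adjusted p = 0.0219, under 1.5-fold) nor that between CCL21+ and double-negative TECs (0.06 ± 0.16, adjusted p = 0.907) was called.

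The target genes resembled the ligands more than Notch1. Hey1 (ENSMUSG00000040289.8, chr3:8663359-8667256, minus strand), a transcriptional repressor of the Hairy/Enhancer-of-split family, had 45.2, 46.6 and 60.9 RPKM in CCL21+ TECs, 9.19, 14.7 and 10.2 RPKM in RANK+ TECs and 75.2 and 75.8 RPKM in double-negative TECs. The order was the same as for Dll4, without overlap. The log2 fold changes were 2.27 ± 0.20 (CCL21+ over RANK+, edgeR adjusted p = 1.17e-05), -2.84 ± 0.21 (RANK+ over double-negative, adjusted p = 5.92e-06) and -0.58 ± 0.21 (CCL21+ over double-negative, adjusted p = 0.117, not called). Hes1 (ENSMUSG00000022528.8, chr16:30064384-30067796, plus strand), the related repressor that answers Notch in many tissues, had 21.8, 20.8 and 26.4 RPKM in CCL21+ TECs, 12.5, 14.3 and 17.9 RPKM in RANK+ TECs and 21.03 and 31.3 RPKM in double-negative TECs. Here too the RANK+ libraries were lowest, but by less: the log2 fold change was 0.74 ± 0.17 for CCL21+ over RANK+ TECs (adjusted p = 0.00442) and -0.91 ± 0.18 for RANK+ over double-negative TECs (adjusted p = 0.00255). The CCL21+ and double-negative libraries overlapped (-0.18 ± 0.18, adjusted p = 0.615).

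Nrarp (ENSMUSG00000078202.3, chr2:25180758-25183339, plus strand), a feedback inhibitor of Notch, set the double-negative TECs apart instead. They had 13.999 and 15.9 RPKM, against 7.87, 9.61 and 11.3 RPKM in CCL21+ and 6.87, 8.70 and 7.22 RPKM in RANK+ TECs, which overlapped each other. The difference of RANK+ from double-negative TECs was called (log2 fold change -1.09 ± 0.17, edgeR adjusted p = 0.000654). The log2 fold change of CCL21+ over double-negative TECs was -0.64 ± 0.17 (adjusted p = 0.0419), a call that was lost under 9 of 16 alternatives, including without any of the CCL21+ libraries and without either double-negative library (adjusted p up to 0.227). Between CCL21+ and RANK+ TECs the log2 fold change was 0.45 ± 0.16 (adjusted p = 0.0362), under the fold threshold.

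**Figure D2:**
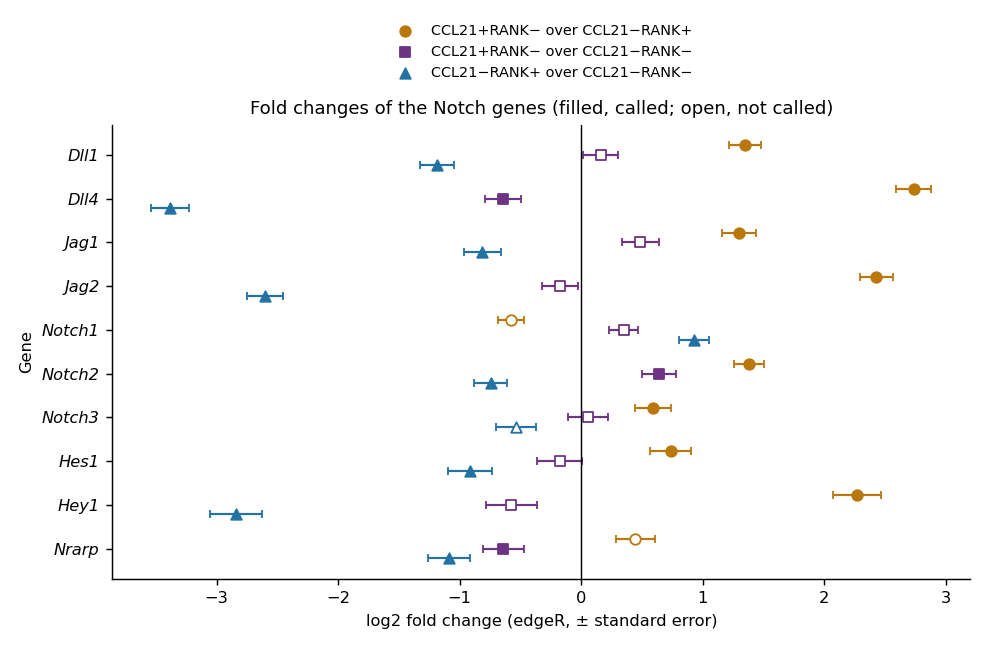
Log2 fold changes (x axis) with standard errors from the edgeR fit for each Notch gene (y axis) in the 3 comparisons, named in the legend as first over second population. Filled symbols were called and open symbols were not. Fold changes against RANK+ TECs reach 2.74 and 3.38 in size for Dll4, while those between CCL21+ and double-negative TECs stay within 0.64 of 0.

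The makeup of the ligand RNA therefore differed between populations. Summed over Dll1, Dll3, Dll4, Jag1 and Jag2, ligand RNA was 184 ± 17.9 RPKM in CCL21+ (SD, n = 3), 44.5 ± 1.06 RPKM in RANK+ (n = 3) and 233 ± 19.3 RPKM in double-negative TECs (n = 2). Dll4 made up 33.4, 41.3 and 44.0% of it in CCL21+ libraries, 27.6, 27.2 and 25.6% in RANK+ libraries and 50.2 and 48.3% in double-negative libraries. Dll3, a divergent Delta-like protein that stays mostly inside the cell, made up 13.0, 8.31 and 13.98% in RANK+ libraries and at most 0.0975% elsewhere. The exact two-sided permutation test could not go below p = 0.1 for 3 against 3 libraries or p = 0.2 for 3 against 2. The Dll4 share reached an exact permutation p = 0.1 between CCL21+ and RANK+ TECs, whose libraries did not overlap. Receptor RNA summed over Notch1 to Notch4 ranged from 76.1 to 90.1 RPKM in CCL21+, 47.1 to 52.3 RPKM in RANK+ and 55.3 to 55.96 RPKM in double-negative libraries. These sums did not overlap between populations either (exact permutation p = 0.1 for CCL21+ against RANK+). The ratio of Notch2 to Notch1 RNA was 6.24, 5.25 and 6.07 in CCL21+ libraries, 1.40, 1.66 and 1.44 in RANK+ libraries and 4.82 and 4.71 in double-negative libraries (exact permutation p = 0.1 for CCL21+ against RANK+). Notch1 accordingly made up 35.4 to 38.5% of receptor RNA in RANK+ libraries and 13.2 to 16.5% in the other 5. Among the targets, the ratio of Hey1 to Hes1 RNA was 2.07, 2.24 and 2.31 in CCL21+, 0.735, 1.03 and 0.566 in RANK+ and 3.57 and 2.42 in double-negative libraries, again without overlap.

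**Figure D3:**
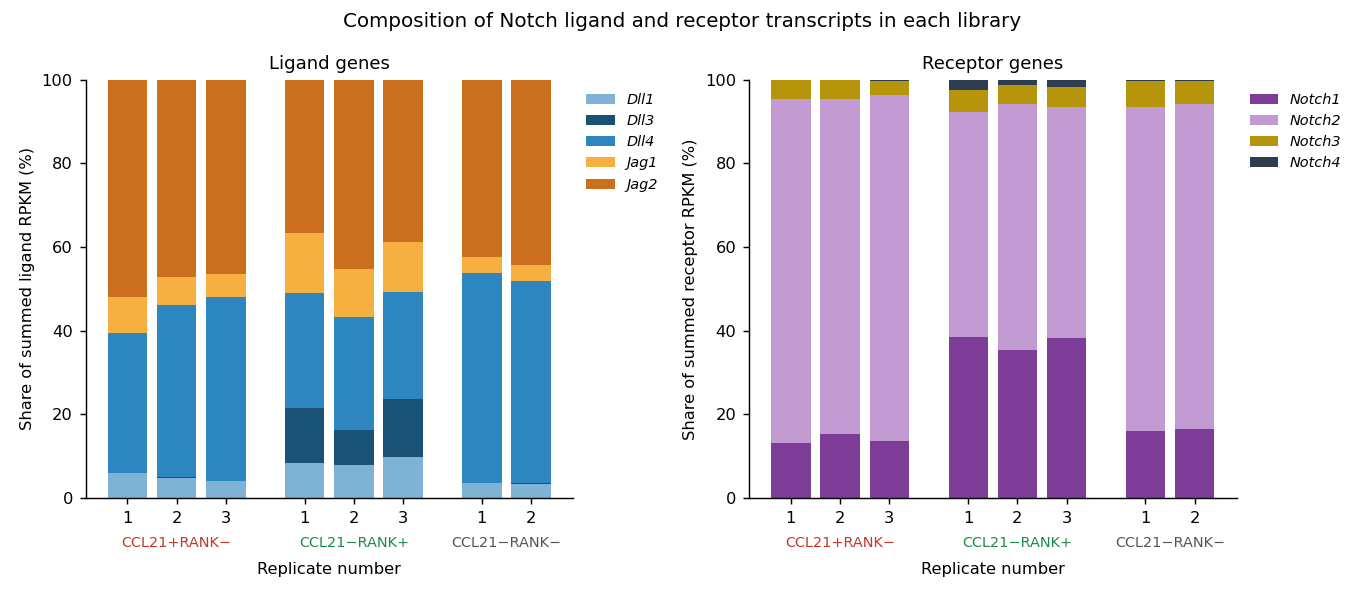
Share (%) of each ligand gene in the summed ligand RPKM (left) and of each receptor gene in the summed receptor RPKM (right), with a stacked bar for each library, grouped by population along the x axis. Dll3 is visible only in RANK+ libraries (8.31 to 13.98%), and Notch1 widens there to between 35.4 and 38.5% of receptor RNA.

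Beyond the 10 genes, 54 further genes that make, modify, carry or answer the Notch signal were listed by role, and all 54 passed the filter. Between CCL21+ and RANK+ TECs 30 were called, which is 55.6% against 30.8% of all tested genes, 18 higher in CCL21+ and 12 in RANK+ TECs, with a median log2 fold change of 0.21. Over all tested genes, 15.4% were called in each direction. Between RANK+ and double-negative TECs 26 were called, or 48.1% against 29.5% of all tested genes, 12 higher in RANK+ and 14 in double-negative TECs (14.4% and 15.1% of all tested genes), with a median of -0.23. Between CCL21+ and double-negative TECs 5 were called, 2 higher in CCL21+ and 3 in double-negative TECs, which at 9.26% was near the 8.02% of all tested genes (4.35% and 3.66% by direction; median 0.04). Calls in both directions were found within most roles. These lists too were chosen with earlier results of these data known, so their shares are descriptive.

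Ligand-like genes outside the 10 differed in both directions. Dll3 had 5.84, 3.76 and 6.06 RPKM in RANK+ libraries and at most 0.178 RPKM in any other, so that it was 31.9-fold higher in RANK+ than in CCL21+ TECs (edgeR adjusted p = 1.7e-06) and 31.2-fold higher than in double-negative TECs (adjusted p = 5.21e-06). Dlk2, a noncanonical ligand, followed Dll4: it had 6.31, 7.53 and 8.65 RPKM in CCL21+, 1.66, 1.08 and 1.25 RPKM in RANK+ and 11.6 and 13.1 RPKM in double-negative libraries. It was called in all 3 comparisons, although the call between CCL21+ and double-negative TECs (log2 fold change -0.72 ± 0.18, adjusted p = 0.0335) was lost under 6 of the 8 settings that left out a library (adjusted p up to 0.214). Its relative Dlk1 ranged from 0.0128 to 1.51 RPKM among the CCL21+ libraries and from 2.66 to 13.8 RPKM among the RANK+ libraries. Its call between them was lost without CCL21+ replicate 2 or RANK+ replicate 1, with an adjusted p of up to 0.124, and its call between RANK+ and double-negative TECs was lost without RANK+ replicate 1 or either double-negative library (up to 0.184). Notch4, an endothelial receptor, was 5.35-fold higher in RANK+ than in CCL21+ TECs (edgeR adjusted p = 0.000477) and 4.98-fold higher than in double-negative TECs (adjusted p = 0.00177), but was not called because its mean stayed under 1 RPKM in every population.

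The receptor-modifying glycosyltransferases divided by enzyme, with 3 of 8 higher in CCL21+ and 2 of 8 higher in RANK+ TECs (15.4% of all tested genes in each direction). Fringe enzymes extend the O-fucose on Notch receptors and shift their preference between Delta-like and Jagged ligands. Mfng had 9.66, 5.69 and 8.36 RPKM in RANK+ libraries and 0.332 RPKM or less in all others (log2 fold change of CCL21+ over RANK+ -5.42 ± 0.60, edgeR adjusted p = 5.3e-05). Lfng had 6.06, 4.39 and 3.27 RPKM in RANK+, 0.114, 0.347 and 0.435 RPKM in CCL21+ and 0.846 and 1.36 RPKM in double-negative libraries. It was 14.1-fold higher in RANK+ than in CCL21+ TECs (adjusted p = 0.000102). Its call over double-negative TECs (3.83-fold, adjusted p = 0.00909) was lost without double-negative replicate 1 (adjusted p = 0.0822). Rfng, the third fringe gene, went the other way at 12.0, 11.5 and 15.4 RPKM in CCL21+ and 7.30, 7.73 and 7.603 RPKM in RANK+ libraries (log2 fold change 0.89 ± 0.12, adjusted p = 0.000201). Gxylt2, which adds xylose to the O-glucose of Notch, was 7.25-fold and Eogt, which adds N-acetylglucosamine, 2.58-fold higher in CCL21+ than in RANK+ TECs (adjusted p = 1.27e-06 and 1.51e-05). Gxylt2 was also 2.84-fold higher in CCL21+ than in double-negative TECs (adjusted p = 0.00101). It was the only one of the 5 pathway genes called there that kept its call without any single library. The other 4 were Dtx3l, higher in CCL21+ TECs, and Dlk2, Lfng and Myc, higher in double-negative TECs.

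Among the ubiquitin ligases that act on ligands, Neurl1a and Neurl1b of the Neuralized family were higher in RANK+ than in CCL21+ TECs, by 13.97-fold (edgeR adjusted p = 3.45e-05) and 4.02-fold (adjusted p = 4.75e-06), and Mib2 of the Mindbomb family was 2.21-fold higher in CCL21+ TECs (adjusted p = 1.57e-05). Mib1, the ligase on which ligand activity mainly depends, was not called in any comparison and differed between CCL21+ and RANK+ TECs by 0.46 ± 0.13 on the log2 scale (adjusted p = 0.0152). Of the 10 genes of receptor cleavage 3 were called, a share near the 30.8% of all tested genes: Aph1a, a γ-secretase subunit, was 1.89-fold higher in CCL21+ TECs (adjusted p = 7.11e-05), and Psen2, a catalytic subunit, 2.82-fold (adjusted p = 0.00269) and the protease gene Adam17 1.55-fold (adjusted p = 0.00165) higher in RANK+ TECs. The Adam17 call was lost, at a fold under 1.5, without CCL21+ replicate 3 or RANK+ replicate 1. Ncstn, which encodes the subunit nicastrin, was not called (log2 fold change -0.20, adjusted p = 0.132). Of the 9 genes of receptor turnover, 4 were higher in CCL21+ and 1 in RANK+ TECs (15.4% of all tested genes in each direction). Fbxw7, which marks the Notch intracellular domain for degradation, had 18.1, 15.0 and 18.0 RPKM in CCL21+, 5.18, 5.595 and 4.93 RPKM in RANK+ and 15.7 and 17.6 RPKM in double-negative libraries (3.52-fold for CCL21+ over RANK+, adjusted p = 1.19e-06). The Deltex gene Dtx4 was 6.81-fold higher in CCL21+ TECs (adjusted p = 1.4e-06), Numbl, a relative of the Notch inhibitor Numb, 3.36-fold higher (adjusted p = 9.94e-05) and Dtx3l 1.81-fold higher (adjusted p = 5.54e-05), whereas Dtx2 was 2.56-fold higher in RANK+ TECs (adjusted p = 4.64e-06). Numb and Itch were not called (log2 fold changes 0.02 and 0.16).

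Of the 12 genes of the nuclear complex, 6 were called higher in CCL21+ and 1 in RANK+ TECs (15.4% of all tested genes in each direction). Between RANK+ and double-negative TECs 3 of the 12 were called, or 25% against 29.5% of all tested genes: Rbpj, higher in RANK+ TECs, and Maml2 and Maml3, higher in double-negative TECs. Rbpj had 11.1, 7.30 and 8.55 RPKM in RANK+ libraries, against 3.22, 2.41 and 3.45 RPKM in CCL21+ and 2.98 and 3.30 RPKM in double-negative libraries. It was 2.73-fold higher in RANK+ than in CCL21+ TECs (edgeR adjusted p = 1.85e-05) and 2.62-fold higher than in double-negative TECs (adjusted p = 7.32e-05). Mastermind-like coactivators bind RBPJ together with the Notch intracellular domain. Of these, Maml2 had 6.22, 5.33 and 4.63 RPKM in CCL21+, 1.23, 1.36 and 1.025 RPKM in RANK+ and 3.17 and 3.79 RPKM in double-negative libraries. Maml2 and Maml3 were 4.88-fold and 3.83-fold higher in CCL21+ than in RANK+ TECs (adjusted p = 5.37e-06 and 9.17e-06). Maml1 was 1.53-fold higher (adjusted p = 0.000681), a call that was lost under 7 of 16 alternatives, among them DESeq2 size factors and leaving out CCL21+ replicate 2 or RANK+ replicate 1. Kat2b and Spen, further genes of this role, were called higher in CCL21+ TECs (log2 fold changes 0.71 and 0.91, adjusted p = 0.000803 and 0.0126).

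Further target genes did not move as 1 group. Dtx1, a Deltex gene that Notch induces in lymphocytes, had 3.26, 4.43 and 5.23 RPKM in CCL21+, 1.79, 0.867 and 1.12 RPKM in RANK+ and 5.29 and 5.83 RPKM in double-negative libraries, in the order of Hey1 (3.74-fold for CCL21+ over RANK+, edgeR adjusted p = 0.000127). Ccnd1, a cyclin that many signals besides Notch control, was 4.95-fold higher in RANK+ than in CCL21+ TECs (adjusted p = 5.54e-05) and 9.49-fold higher than in double-negative TECs (adjusted p = 2.76e-05). Myc was 1.52-fold higher in RANK+ than in CCL21+ TECs (adjusted p = 0.0323) with overlapping libraries, and Hes7 2.21-fold higher in CCL21+ TECs (adjusted p = 0.0207). Both calls failed without CCL21+ replicate 1 or 2, and with other libraries left out, at adjusted p-values of up to 0.112 and 0.0839. Heyl was level across populations as far as the libraries could show (log2 fold change -0.07 for CCL21+ over RANK+, adjusted p = 0.834), and Hey2 stayed under 1 RPKM. Hes5 had 0, 0 and 5 counts in CCL21+, 36, 16 and 25 counts in RANK+ and 3 and 2 counts in double-negative libraries, too few for a fold.

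**Figure D4:**
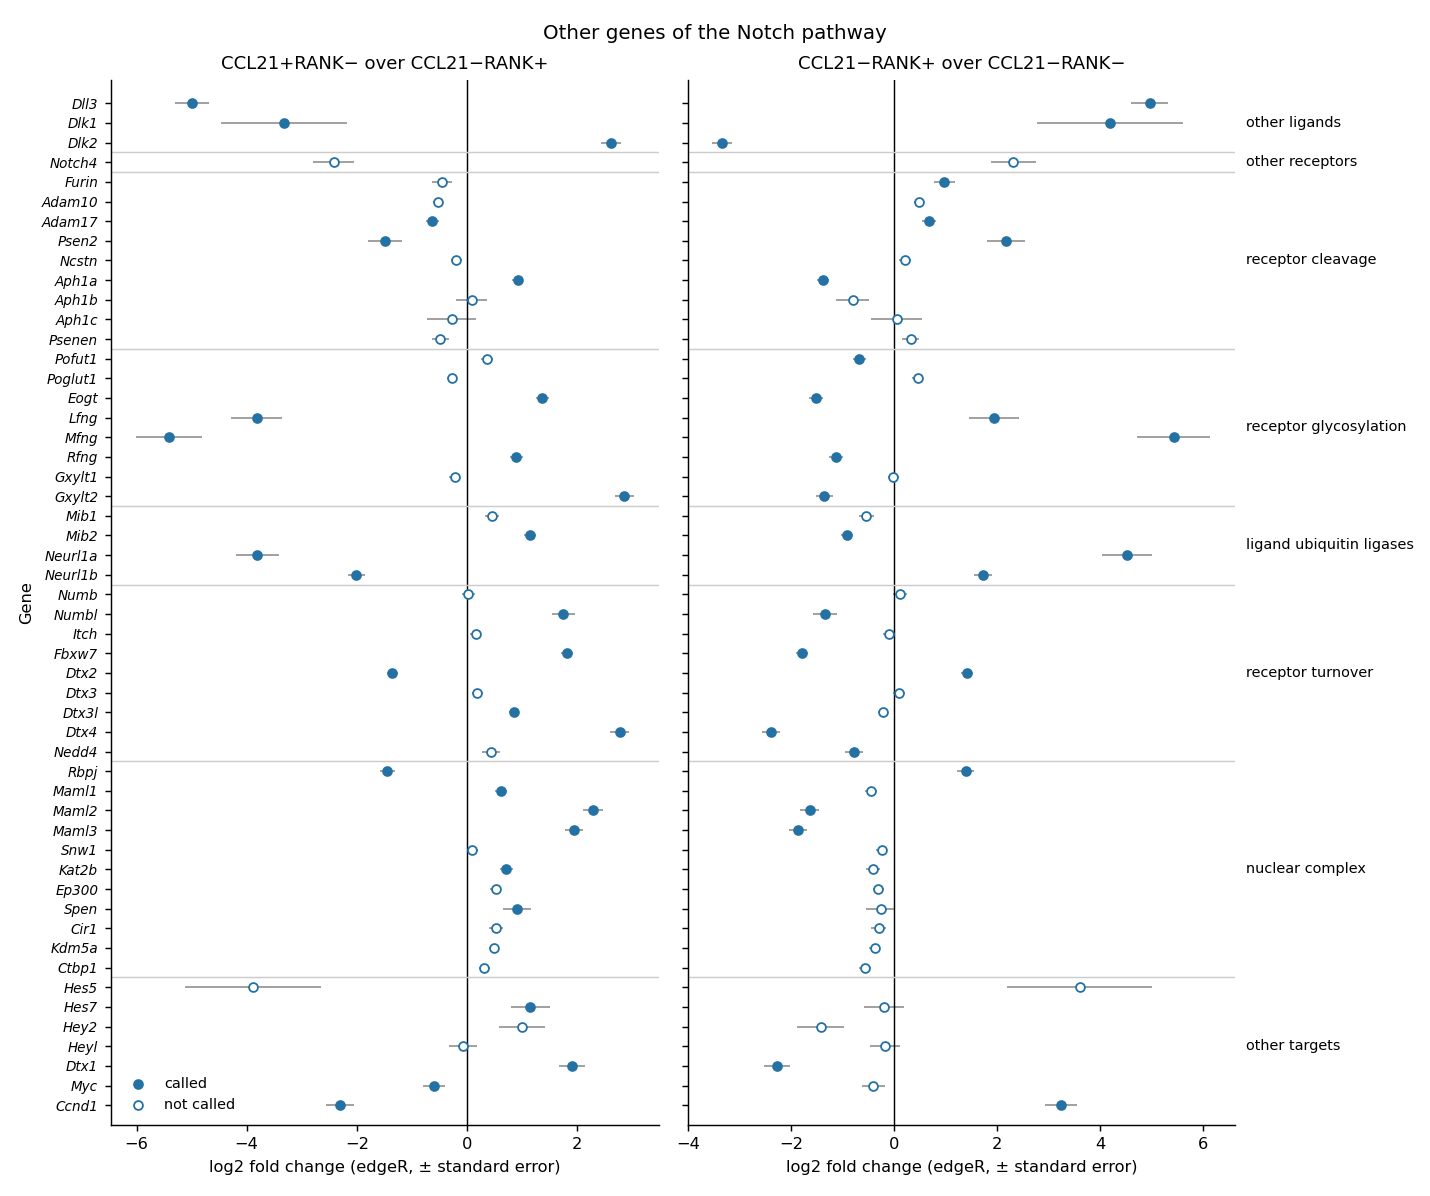
Log2 fold changes (x axis) with standard errors from the edgeR fit for other pathway genes (y axis, grouped by role) in the 2 comparisons with RANK+ TECs. Filled points were called, open points were not. Mfng, Dll3, Neurl1a and Lfng lie on the RANK+ side of both panels, Dlk2, Dtx4, Gxylt2 and Maml2 on the opposite side, and Hes5 rests on 36 counts or fewer in each library.

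Promoters of the pathway genes were searched for GTGGGAA, a high-affinity form of the sequence that RBPJ binds, on both strands from 250 bases before to 50 after each RefSeq start (GRCm38.p6). Of 32851 promoter entries 6.38% held it, and 25.6% held the shorter TGGGAA that it contains. A gene can have several entries, and of the 27025 genes with an entry 7.25% held GTGGGAA and 28.3% held TGGGAA in at least 1 of them. Of the 10 Notch genes 8 had an entry (all but Hes1 and Hey1), and none of the 8 held either form. Of the 54 other pathway genes 41 had an entry, of which 7 held GTGGGAA in at least 1 entry (Psen2, Aph1a, Lfng, Spen, Hes5, Hes7 and Hey2) and 15 held TGGGAA. Stretches of 2 of these promoters are printed, with GTGGGAA or its reverse complement in capitals: Lfng as the gene with the largest difference among the 7 apart from Hes5 (chr5:140607191-140607290, plus strand), and Hes5 as a gene with a copy on each strand, as Hey2 also had (chr4:154960683-154960862, plus strand), both 5′ to 3′.

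Lfng: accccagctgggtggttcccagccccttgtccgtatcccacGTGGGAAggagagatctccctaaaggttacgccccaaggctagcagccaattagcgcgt

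Hes5: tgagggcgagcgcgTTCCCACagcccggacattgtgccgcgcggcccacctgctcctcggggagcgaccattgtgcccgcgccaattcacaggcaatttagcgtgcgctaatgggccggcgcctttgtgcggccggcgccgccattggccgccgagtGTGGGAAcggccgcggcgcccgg

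A match is a description of the letters and not a bound site. Genes with a match lay on both sides of the comparison, with Lfng and Psen2 higher in RANK+ TECs and Aph1a, Spen and Hes7 higher in CCL21+ TECs.

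The labels were checked against marker genes. All 8 TEC markers were above 1 RPKM in every library, and together they summed to between 4848 and 5559 RPKM in CCL21+, 1686 and 2048 RPKM in RANK+ and 4318 and 4632 RPKM in double-negative libraries. Krt18 was the most abundant of them in CCL21+ and double-negative libraries and Krt8 in RANK+ libraries. Of the 8, 5 were called higher in CCL21+ than in RANK+ TECs and 1 lower, beside 15.4% of all tested genes in each direction. Krt18 and Pax1 were 5.44-fold and 5.70-fold higher in CCL21+ TECs, and Epcam was 2.05-fold higher in RANK+ TECs. The part of this difference in the levels of the Notch genes was not tested. Of the reporters' own genes, Ccl21a had 561, 346 and 305 RPKM in CCL21+, 152, 95.9 and 78.2 RPKM in RANK+ and 6.88 and 8.87 RPKM in double-negative libraries, so its RNA in the tdTomato-negative RANK+ TECs was 4.10-fold below CCL21+ TECs and 12.6-fold above double-negative TECs (edgeR adjusted p = 0.000188 and 2.49e-05). Tnfrsf11a had 8.78, 9.44 and 10.3 RPKM in CCL21+, 111, 93.1 and 107 RPKM in RANK+ and 2.62 and 2.26 RPKM in double-negative libraries, and was 3.88-fold higher in the Venus-negative CCL21+ than in double-negative TECs (adjusted p = 8.7e-05). Each gene was thus highest in the population sorted for it and was not confined to it. Summed markers of other cells were highest in RANK+ libraries for every list but the parathyroid markers. The 8 mesenchyme markers summed to 154, 93.6 and 89.7 RPKM in RANK+ libraries, mostly from the pericyte gene Rgs5 (98.9, 65.2 and 55.2 RPKM), and to 10.6 RPKM or less in the others. The 7 myeloid markers, mostly Lyz2, summed to 61.9, 19.3 and 22.02 RPKM in RANK+ libraries and 0.993 RPKM or less elsewhere, the 4 B cell markers to 9.89, 4.78 and 5.35 RPKM against 0.902 RPKM or less, and the 8 endothelial markers to 6.41, 4.01 and 2.68 RPKM against 0.928 RPKM or less. Called higher in RANK+ than in CCL21+ TECs were 7 of 8 mesenchyme, 4 of 7 myeloid, 1 of 4 B cell and 2 of 7 tested endothelial markers, and 0 of them were called lower, where 15.4% of all tested genes were called higher in RANK+ TECs. The endothelial cadherin gene Cdh5 was at 0 in CCL21+ replicates 1 and 3. Dll3, Mfng, Lfng, Neurl1a, Rbpj and Notch1 were highest where the markers of other cells were highest. So were Dlk1, Notch4, Neurl1b, Psen2, Adam17, Dtx2, Ccnd1 and Hes5. The part of such cells in the levels of these genes was not tested. Of the thymocyte markers 3 of 13 were called higher in RANK+ than in CCL21+ TECs, and 0 lower. With so few markers a list, the B cell, endothelial and thymocyte counts against CCL21+ TECs were not far from that share. The call rule also passes over genes with a mean under 1 RPKM in both populations, such as Cdh5 and Pecam1. The median log2 fold changes of CCL21+ over RANK+ TECs were -4.17 (B cell), -2.78 (endothelium) and -1.02 (thymocyte), beside -0.11 over all tested genes. Over double-negative TECs, 6 of 13 thymocyte, 1 of 4 B cell and 2 of 7 tested endothelial markers were called higher in RANK+ TECs and 0 lower. In that direction 14.4% of all tested genes were called. The 4 parathyroid markers summed to 7122, 1750 and 1955 RPKM in CCL21+ libraries and to between 11.1 and 24.9 RPKM in the others, and in CCL21+ replicate 1 they exceeded the 4959 RPKM of its TEC markers. The part of parathyroid RNA in the levels of the Notch genes was not tested.

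Genes whose log2 CPM followed a Notch gene most closely across the 8 libraries were ranked by Pearson's r among 10918 tested genes with a mean of at least 5 CPM (counts scaled to the library total only). The closest to Dll4 were Lrrc1 and Man2a1 (r = 0.998 for each), Pir (0.998), Aldh4a1 (0.997) and Ssbp3 (0.997). For example, Man2a1, a Golgi mannosidase, had means of 81.9, 16.6 and 131 RPKM in CCL21+, RANK+ and double-negative TECs. The closest to Jag1 were Tppp (0.997), Map3k3 (0.994), Usp35, Jak2 and Pld3 (0.991 each), which were all highest in CCL21+ TECs. The closest to Hes1 were Dhx37 (0.991), Cep131 (0.990), Strn4 (0.988), Zfp282 (0.986) and Ahdc1 (0.983). These values are descriptive: the 8 libraries form 3 groups, and 2233, 1330 and 1049 genes reached an r over 0.9 with Dll4, Jag1 and Hes1.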

How the data were processed

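RNA of sorted E17 TECs was measured by bulk RNA sequencing in 8 libraries. The authors deposited a single table of gene-level expected counts from RSEM 1.3.1, run after STAR 2.5.1 alignment and Trimmomatic per the submitters' processing notes (bcl2fastq 2.20, build mm10), neither normalized nor filtered. RSEM shares reads between genes, and 4.47 to 5.94% of values were not whole. The labels and the study's methods name different directional library kits, and whether counting used strand is not given in the sources used here. All 55450 gene IDs matched GENCODE M21 (GRCm38), which supplied positions and exon lengths. No per-sample column was unused (0 left out). Depth was 42751839 to 71625282 counts per library, and reads were not molecules. The noncoding genes Gm26917 and Gm42418 took 6.89 to 19.4% and 1.47 to 10.7% of the counts. Replicates differed by more than sampling noise (chi-square per gene 77.3 to 275), and each library counted as 1 sample.

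Counts were rounded and tested in edgeR 4.0.16 (R 4.3.3): TMM factors, the default expression filter, 1 quasi-likelihood fit of the 3 group means to all 8 libraries, and Benjamini-Hochberg adjustment over 21451 genes. The call thresholds (adjusted p under 0.05, fold over 1.5, mean RPKM over 1) follow the study. Standard errors were derived from the quasi-likelihood F, and the common biological coefficient of variation was 0.326. RPKM used the library total and the summed exon length. The fit was tested on simulated data. Ratios were compared by exact permutation tests in scipy 1.17.1. Promoters came from RefSeq (GRCm38.p6).

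The 10 Notch genes, the role lists and the marker lists were chosen with earlier results of these data known. Named were the 10 genes, the pathway genes called in any comparison (others with their values), and the 5 tested genes with the highest r with Dll4, Jag1 and Hes1, leaving out predicted genes. Alternatives covered scaling (DESeq2 1.42.0 size factors, upper quartile, without the 2 noncoding genes), filters, the DESeq2 test, the compared libraries alone, a replicate block, the p-value alone, and leaving out each library. Some genes of the role lists are included in the counts but are not reported here by name.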

Additional observations from a re-analysis of the deposited data

How the results depend on the processing

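Each count of calls was recomputed under 17 alternatives, and 139 of 153 recomputed counts came out within 1.5 times the value reported. With the adjusted p-value alone, 11516 genes differed between CCL21+ and RANK+ TECs and 10501 between RANK+ and double-negative TECs. With at least 10 counts in every library, 1 of the 10 Notch genes was called between CCL21+ and double-negative TECs. Leaving out 1 library at a time gave 657 to 2066 calls over all genes there (657 and 772 without double-negative replicate 2 or 1), 0 to 3 among the 10 Notch genes (1 without CCL21+ replicate 1 or 2, 0 without either double-negative library) and 1 to 6 among the other pathway genes (3, 2 and 3 without CCL21+ replicate 1, CCL21+ replicate 2 and RANK+ replicate 3, 1 without either double-negative library), so every Notch pathway call in that comparison but Gxylt2 rested on single libraries. A lone double-negative library was assumed to vary like the other groups. In the comparisons with RANK+ TECs, 7 of 8 and 9 of 9 Notch calls and 24 of 30 and 22 of 26 pathway calls were kept with every library left out in turn.

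Of 484 other recomputed values, nearly all fold changes of single Notch genes, 437 kept their direction and side of the threshold, while 30 lost and 13 gained a call. Direction turned only for uncalled differences between CCL21+ and double-negative TECs: Notch3 (-0.0072 and -0.14 without CCL21+ or double-negative replicate 2, range -0.14 to 0.27) and Hes1 (0.046 without double-negative replicate 2, range -0.38 to 0.046). Notch1 and Notch3 lay on either side of the 1.5-fold threshold between CCL21+ and RANK+ TECs, and Notch1 was called under 10 and Notch3 lost its call under 13 of 16 alternatives (with DESeq2 size factors the log2 fold changes were -0.66 and 0.50). Those size factors moved the median log2 fold change of all genes by 0.14 between RANK+ and double-negative TECs. The cause of these changes was not tested. The shorter TGGGAA raised the share of promoters with a match from 6.38 to 25.6%.

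The labels number the replicates 1 to 3 in CCL21+ and RANK+ TECs and 1 and 2 in double-negative TECs. They do not say what a number shares. The deposited sample titles are numbered so that libraries of the same replicate number stand next to each other, without a stated reason. Deviations of same-numbered CCL21+ and RANK+ libraries correlated at 0.126, 0.0485 and 0.0707, each the highest of its library between these 2 populations, a hint of pairing and not a label. With the double-negative libraries, same-numbered pairs correlated at -0.0528 and -0.117 (CCL21+) and -0.0519 and -0.0411 (RANK+). The 2 double-negative libraries deviate from their mean by equal and opposite amounts, so these values cannot decide whether the numbers mark pairs. The numbers were not taken as pairs in the main fit. With a replicate block, 6616, 1913 and 6324 genes were called in the 3 comparisons (6617, 1720 and 6332 without it), 7, 3 and 9 of the Notch genes and 30, 4 and 27 of the other pathway genes. Notch3 was not called between CCL21+ and RANK+ TECs under the block (log2 fold change 0.58, adjusted p = 0.0141). Dlk2 and Lfng lost their calls between CCL21+ and double-negative TECs under it. Of the 4 other pathway genes called there with the block, 3 were higher in CCL21+ TECs, against 2 of 5 without it.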
